A study of Homo sapiens with 8 samples.

Results

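CRYAB, the small heat shock protein αB-crystallin, and 9 other members of the heat shock system were followed in MDAH and SKOV3 epithelial ovarian cancer (EOC) cells, silenced or not for the RNA-binding protein SFPQ. The 10 genes were CRYAB, HSPB1, HSPB8, HSPA1A, HSPA1B, HSPA8, HSPH1, DNAJB1, HSP90AA1 and BAG3, out of 20499 named genes on the arrays, and they were measured by 15 of 50599 probes, chosen through the RefSeq accession of each probe. CRYAB itself was selected on its rise upon SFPQ silencing in SKOV3 cells, so its levels in that line are given as a description, with no p, and the other members are treated in the same way in that comparison. All 10 were among the 15547 genes tested, since both arrays of at least 1 group were well above background for them.

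MDAH (MDAH-2774) and SKOV3 are established EOC cell lines. Total RNA was labelled with Cy3 and hybridized to 8 single-colour Agilent arrays, in 4 groups of 2: MDAH control, MDAH silenced, SKOV3 control and SKOV3 silenced. In each line 1 silenced array held cells with sh-SFPQ#2 and 1 held cells with sh-SFPQ#3, and no drug is named in the labels of any group. The labels name the controls of both lines as carrying the control shRNA, whereas the supplementary methods list 1 parental and 1 sh-ctrl sample per line, so "control" means here only cells not silenced for SFPQ. The silenced arrays of a line were thus separately transduced, and the gap between sh-SFPQ#2 and sh-SFPQ#3 enters the SEs and p-values of the fit. No line has 2 arrays of 1 shRNA, so this gap cannot be told apart from the spread between cultures. For the controls, nothing states that the 2 arrays of a line came from separate cultures. The p-values measure only the spread between these arrays. In RNA from whole cultures, fewer cells with a transcript and less of it per cell cannot be told apart.

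Heat shock proteins keep other proteins folded. Small heat shock proteins such as CRYAB and HSPB1 hold unfolding proteins in large assemblies without using ATP, and HSP70 chaperones bind and release them in an ATP cycle that J domain proteins start and that nucleotide exchange factors such as BAG3 and HSPH1 complete, while HSP90 acts later on kinases, receptors and other clients. The transcription factor HSF1 induces many of these genes upon proteotoxic stress through heat shock elements in their promoters, and in tumour cells several of them, CRYAB and HSPB1 among these, are known to restrain apoptosis.

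The promoters of the members show how closely related some of them are, and RefSeq windows (GRCh38.p14, 250 bases before to 50 after the transcription start) were at hand for 9 of the 10 members, 12 windows in all. HSPA1A and HSPA1B are shown because they are near-copies that lie next to each other and yet stood on opposite sides of the line comparison below, and HSPA8 because it had the highest change among the members in MDAH cells. Capitals mark matches to GAANNTTC or TTCNNGAA, which are 2 units of a heat shock element and each its own reverse complement, so that both strands were searched. Matches that overlap are written as 1 run of capitals. The HSPA1A window is chr6:31815293-31815592 on the + strand, the HSPA1B window chr6:31827488-31827787 on the + strand, and the HSPA8 window chr11:123062087-123062386 on the - strand, each written 5′ to 3′ in the direction of its gene.
HSPA1A: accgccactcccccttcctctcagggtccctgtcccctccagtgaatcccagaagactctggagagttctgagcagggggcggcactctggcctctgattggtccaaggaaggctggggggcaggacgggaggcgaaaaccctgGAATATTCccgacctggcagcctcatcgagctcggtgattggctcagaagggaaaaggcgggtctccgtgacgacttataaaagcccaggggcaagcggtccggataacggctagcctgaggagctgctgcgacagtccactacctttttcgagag
HSPA1B: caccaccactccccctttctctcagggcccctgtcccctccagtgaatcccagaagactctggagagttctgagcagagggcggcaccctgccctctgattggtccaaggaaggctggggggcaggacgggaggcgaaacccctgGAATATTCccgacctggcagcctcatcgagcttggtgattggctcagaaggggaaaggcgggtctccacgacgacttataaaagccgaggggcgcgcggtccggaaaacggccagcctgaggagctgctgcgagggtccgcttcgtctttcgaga
HSPA8: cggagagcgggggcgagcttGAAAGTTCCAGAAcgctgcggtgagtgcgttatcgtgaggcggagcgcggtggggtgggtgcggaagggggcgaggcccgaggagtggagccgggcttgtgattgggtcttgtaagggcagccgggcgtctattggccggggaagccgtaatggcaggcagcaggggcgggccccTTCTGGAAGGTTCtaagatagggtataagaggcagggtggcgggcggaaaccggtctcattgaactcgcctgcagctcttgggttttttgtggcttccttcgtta

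The HSPA1A and HSPA1B windows were identical at 92.64% of 299 aligned bases. Each held 1 match, with the same letters, GAATATTC, beginning 106 bases before the start of HSPA1A and 105 before that of HSPA1B. The HSPA8 window held 4 matches, which overlapped to give 3 units in a row at 2 places, beginning 230 and 55 bases before the start. Of the 9 members with a window, 7 had at least 1 match, in 8 of the 12 windows, beside 13.5% of all 35116 promoter windows. HSPB8, HSPB1, DNAJB1 and HSP90AA1 were the other genes with a match, and 1 HSP90AA1 window also had 3 units in a row, which 0.49% of all windows had. No match was in the windows of HSPH1 and BAG3, which says only that these letters are not there. A match is a description of the letters and not a site shown to be bound.

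SFPQ itself was lower in the silenced cells of both lines. Levels are log2 signals from which each array's own 75th percentile was subtracted, so that 0 is the 75th percentile itself, and a level of 1 probe is not compared with that of another. SFPQ read 3.64 and 3.91 in MDAH controls against 2.45 and 2.10 with sh-SFPQ#2 and #3, and 4.84 and 4.66 in SKOV3 controls against 3.01 and 2.48. It fell by 1.501 ± 0.234 (SE, n = 2 against 2) in MDAH cells (limma, adjusted p = 0.0328) and by 2.01 ± 0.234 in SKOV3 cells (adjusted p = 0.0299). On leaving out 1 array at a time the decrease stayed between 1.33 and 1.68 in MDAH and between 1.74 and 2.27 in SKOV3 cells, with adjusted p from 0.0296 to 0.218 and from 0.0173 to 0.118, so the call was lost without either control of either line and without the sh-SFPQ#3 array of the line compared. The array of MDAH cells with sh-SFPQ#3 was the dimmest, with a 75th percentile of 243.9 intensity units against 387.2 to 496.2 on the others. Of 10 epithelial markers, KRT7, KRT8, KRT18, KRT19, EPCAM, MUC1 and PAX8 were well above background on all 8 arrays, CDH1 on 6, WT1 on 4 and MUC16 on 2. Among 12 markers of other cell types 5 to 7 were well above background on each array. PTPRC and CD14, known from immune cells, COL1A1, known from fibroblasts, and ACTA2 and DES, known from muscle, were so on all 8, whereas CD3E, COL3A1 and GFAP were among those above it on none. The summed level of the 12, on the log2 scale, was 1.58 to 1.63 in MDAH controls and 1.77 to 2.01 in silenced MDAH cells, and 0.69 to 0.85 and 0.93 to 1.01 in SKOV3 cells. COL1A1 was among those higher in the silenced arrays of both lines. Of the 7 markers tested, however, 3 were higher and 4 lower upon silencing in MDAH cells (median -0.02). In SKOV3 cells 4 were higher and 3 lower (median 0.01). The part of other cells in the results was not tested.

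CRYAB, measured by 1 probe that was well above background on all 8 arrays, was low in MDAH cells whether silenced or not and high in silenced SKOV3 cells only. It read -2.87 and -3.25 in MDAH controls, -2.93 and -2.71 in silenced MDAH cells, -1.81 and -2.51 in SKOV3 controls, and 0.31 with sh-SFPQ#2 and 1.68 with sh-SFPQ#3 in SKOV3 cells. In processed intensity this was 68.1 and 50.9, then 53.1 and 37.2 in MDAH cells, and 125 and 68.0, then 576 and 1490 in SKOV3 cells. Both silenced SKOV3 arrays lay above all 6 others, and the MDAH groups overlapped. The difference in SKOV3 cells was 3.16 ± 0.456 on the log2 scale, 8.91-fold, and the rank of CRYAB was 10 of 15547 from the highest change. These are values that chose the gene. Epithelial markers were also higher for 8 of 10 in silenced than in control SKOV3 cells, with a median difference of 0.58 beside -0.04 over all genes. Of them 0 of 10 passed the test (limma), beside 0.997% of all genes tested. At an unadjusted p under 0.05 there were 4 of 10, beside 19.5%. In MDAH cells 4 of these 10 markers were higher upon silencing, with a median of -0.13 beside 0.10 over all genes. The summed log2 level of the 10 was 9.20 to 9.28 in SKOV3 controls and 9.27 in both silenced SKOV3 arrays. The part of the epithelial markers in the CRYAB difference was not tested. Single pairs of a silenced and a control SKOV3 array differed by 4.35-fold to 18.2-fold, and the mean difference from the controls was 5.54-fold with sh-SFPQ#2 and 14.3-fold with sh-SFPQ#3. SFPQ was at 3.01 in the former and 2.48 in the latter, and with 1 array for each shRNA a relation between the levels cannot be tested.

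In MDAH cells no difference of CRYAB upon silencing passed the test. The difference of CRYAB there was 0.23 ± 0.456 on the log2 scale (limma, adjusted p = 0.785), with a 95% interval from -0.85 to 1.32. The change in SKOV3 cells exceeded that in MDAH cells by 2.92 ± 0.645, a description that includes the values CRYAB was chosen on. The order of the groups was silenced SKOV3, SKOV3 control, silenced MDAH and MDAH control cells. SKOV3 controls lay above both MDAH groups on every array, and the MDAH groups were not apart. MDAH minus SKOV3 controls was -0.90 ± 0.456 for CRYAB, a description that was not tested. This SE comes from the spread within all 4 groups, the silenced ones included. It was 0.284 in a fit to only the 4 control arrays. With a normexp background correction and quantile normalization the difference in SKOV3 cells was 2.38.

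**Figure D1:**
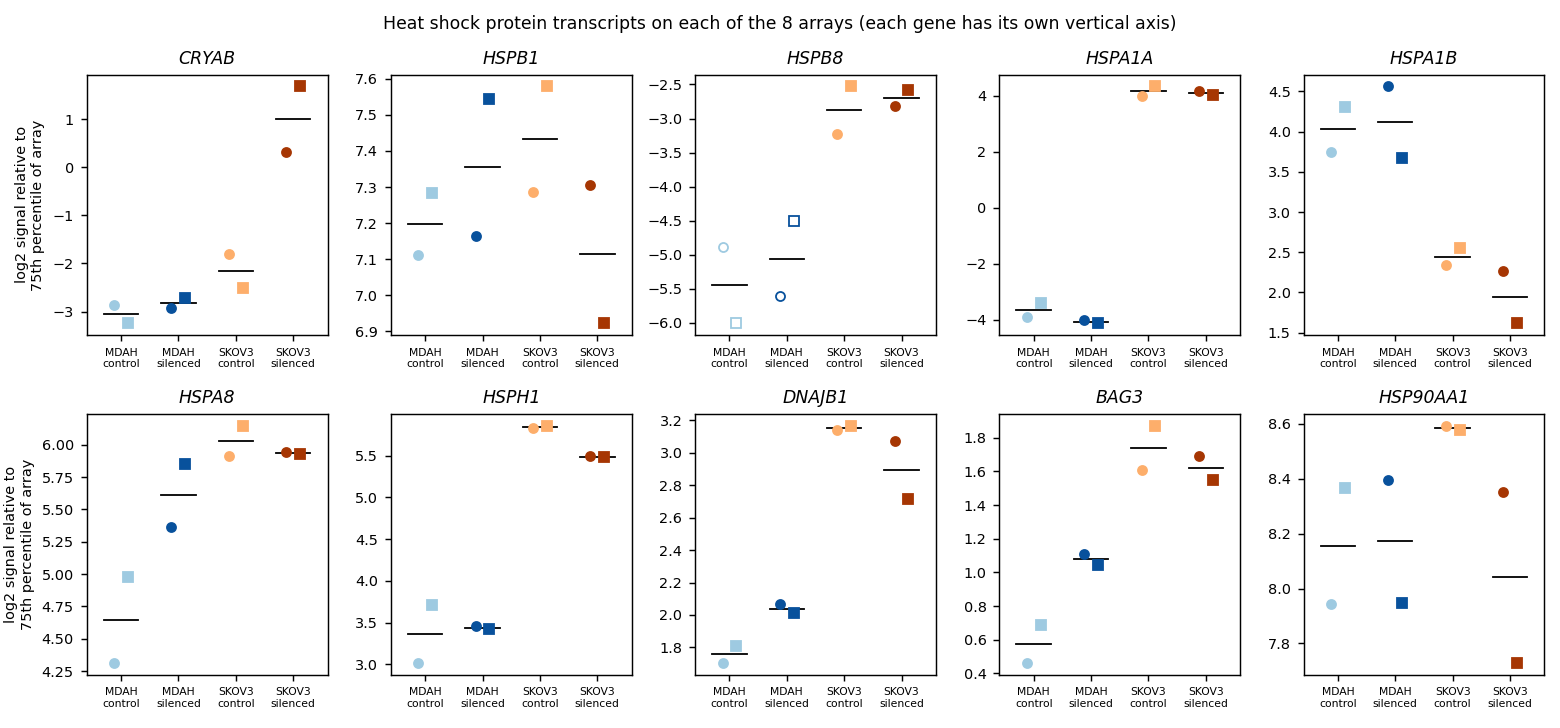
Log2 signal minus the array's 75th percentile (vertical axis, own scale for each gene) of the 10 heat shock genes in the 4 groups (horizontal axis). Circles are control 1 or sh-SFPQ#2, squares control 2 or sh-SFPQ#3, bars the group mean, and hollow points a group in which no array was well above background. CRYAB reaches 0.31 and 1.68 in silenced SKOV3 cells and -1.81 or less elsewhere, while HSPA1A lies at -3.40 or less in MDAH and at 3.999 or more in SKOV3 cells.

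HSPB1 (HSP27), an abundant small heat shock protein that also binds actin, had similar levels on all arrays. Its brightest probe read 7.11 and 7.28 in MDAH controls, 7.16 and 7.55 in silenced MDAH cells, 7.29 and 7.58 in SKOV3 controls and 7.31 and 6.92 in silenced SKOV3 cells. Silenced and control arrays of this probe overlapped in both lines. The difference was 0.16 ± 0.217 in MDAH cells (limma, adjusted p = 0.694; 95% interval from -0.36 to 0.68) and -0.32 ± 0.217 in SKOV3 cells. All 3 probes of HSPB1 gave a positive difference in MDAH (0.06 to 0.28) and a negative one in SKOV3 cells (-0.44 to -0.32). The second probe had both silenced arrays above both controls in MDAH cells, and the third had them below both controls in SKOV3 cells. The sign of the brightest probe in MDAH cells turned with quantile normalization, to -0.08.

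HSPB8, the small heat shock protein that works with BAG3 in selective autophagy, was detected only in SKOV3 cells. It read -3.23 and -2.53 in SKOV3 controls and -2.81 and -2.59 in silenced SKOV3 cells, and these groups overlapped with a difference of 0.18 ± 0.495. In MDAH cells none of the 4 arrays was well above background (-4.88, -6.01, -5.61 and -4.50), so no fold is given for silencing there. SKOV3 controls were at least 3.99-fold higher than MDAH controls (limma, adjusted p = 0.00428), a bound set by the dimmest signals well above background. HSPB8 entered the test through its SKOV3 arrays alone, and with no filter on dim probes the adjusted p was 0.00769 over 20499 genes. With normexp and quantile normalization the log2 difference of MDAH from SKOV3 controls in HSPB8 was only -0.72, which is less than that bound.

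HSPB2, which lies beside CRYAB in the genome and encodes another small heat shock protein known from muscle, had the reverse distribution. It read -0.58 and -0.84 in MDAH controls and -1.57 and -1.75 in silenced MDAH cells. None of the 4 SKOV3 arrays was well above background, silenced ones included, so the neighbour of CRYAB was not detected on the arrays where CRYAB was highest. MDAH controls were at least 9.70-fold above SKOV3 controls (limma, adjusted p = 8e-04), a bound that holds for the 75th percentile scale. HSPB2 entered this test through its MDAH arrays alone, and the adjusted p was 0.00166 with no filter on dim probes. With normexp and quantile normalization the log2 difference was 1.98, which is less than that bound. The silencing difference in MDAH cells, -0.95 ± 0.589, did not pass the test (adjusted p = 0.371), although the silenced arrays lay below both controls.

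HSPA1A and HSPA1B, the stress-inducible HSP70 genes, encode nearly the same protein, and the lines differed in them in opposite directions. HSPA1A read -3.91 and -3.40 in MDAH controls, -4.02 and -4.13 in silenced MDAH cells, 3.999 and 4.33 in SKOV3 controls and 4.17 and 4.01 in silenced SKOV3 cells. Every SKOV3 array was thus far above every MDAH array. In intensity the HSPA1A probe gave 14 to 45.7 in MDAH and 7000 to 8320 in SKOV3 cells. This probe has 10 spots on each array, whose SD was 0.15 to 0.48 on the log2 scale on MDAH arrays and 0.04 to 0.06 on SKOV3 arrays, far below the difference. The difference of MDAH from SKOV3 controls was -7.82 ± 0.217, 226-fold lower (limma, adjusted p = 1.58e-06), rank 92 of 15547 by size, and -6.08 with normexp and quantile normalization. HSPA1A was well above background on both MDAH control arrays and on 1 of 2 silenced MDAH arrays.

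HSPA1B, by contrast, was bright in both lines and higher in MDAH cells. It read 3.75 and 4.31 in MDAH controls, 4.56 and 3.67 in silenced MDAH cells, 2.34 and 2.55 in SKOV3 controls and 2.27 and 1.62 in silenced SKOV3 cells. All 4 MDAH arrays lay above all 4 SKOV3 arrays. MDAH controls were 1.58 ± 0.367 above SKOV3 controls, 2.996-fold (adjusted p = 0.00931), and without MDAH control 2 the difference was 1.31 with an adjusted p of 0.064. Because the genes are nearly identical, how far each probe also binds the other transcript is uncertain and was not tested, and the probe sequences were not used here. Upon silencing, HSPA1A differed by -0.42 ± 0.217 in MDAH cells (adjusted p = 0.295) and by -0.08 ± 0.217 in SKOV3 cells. HSPA1B differed by 0.09 ± 0.367 in MDAH cells (adjusted p = 0.906; 95% interval from -0.79 to 0.96; -0.03 with quantile normalization) and by -0.50 ± 0.367 in SKOV3 cells.

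HSPA8 (HSC70), the constitutive HSP70 that also uncoats clathrin vesicles, showed the highest difference upon silencing among the members in MDAH cells. It read 4.32 and 4.98 in MDAH controls and 5.37 and 5.85 in silenced MDAH cells, and 5.91 and 6.15 in SKOV3 controls and 5.95 and 5.93 in silenced SKOV3 cells. The silenced MDAH arrays lay above both MDAH controls and below every SKOV3 array. The difference in MDAH cells was 0.96 ± 0.267, 1.95-fold, with an unadjusted p of 0.00949 that did not pass over all genes (limma, adjusted p = 0.114). In SKOV3 cells it was -0.09 ± 0.267, with overlapping groups. MDAH controls were 2.61-fold lower than SKOV3 controls (a log2 difference of -1.38 ± 0.267, adjusted p = 0.00431).

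HSPH1 (HSP105), of the HSP110 family, exchanges the nucleotide of HSP70 and was lower in MDAH cells. It read 3.02 and 3.71 in MDAH controls, 3.46 and 3.43 in silenced MDAH cells, 5.83 and 5.86 in SKOV3 controls and 5.49 and 5.48 in silenced SKOV3 cells. All SKOV3 arrays lay above all MDAH arrays, and within SKOV3 cells both silenced arrays lay below both controls. MDAH controls were 5.56-fold lower than SKOV3 controls (a log2 difference of -2.48 ± 0.229, limma, adjusted p = 0.000174), and the second HSPH1 probe gave a log2 difference of -2.40. Upon silencing HSPH1 differed by 0.08 ± 0.229 in MDAH cells (adjusted p = 0.864; -0.05 with quantile normalization) and by -0.36 ± 0.229 in SKOV3 cells, where its second probe gave -0.34.

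DNAJB1 (HSP40), the J domain protein that hands clients to HSP70, and BAG3, the BAG domain partner of HSP70 and HSPB8, had a pattern much like that of HSPA8. DNAJB1 read 1.71 and 1.81 in MDAH controls, 2.07 and 2.01 in silenced MDAH cells, 3.14 and 3.17 in SKOV3 controls and 3.07 and 2.72 in silenced SKOV3 cells. BAG3 read 0.46 and 0.69 in MDAH controls, 1.11 and 1.04 in silenced MDAH cells, 1.61 and 1.87 in SKOV3 controls and 1.69 and 1.55 in silenced SKOV3 cells. For both genes the silenced MDAH arrays lay above the MDAH controls and below every SKOV3 array. The difference upon silencing in MDAH cells was 0.28 ± 0.165 for DNAJB1 (limma, adjusted p = 0.342) and 0.50 ± 0.166 for BAG3 (unadjusted p = 0.0207, adjusted p = 0.151). In SKOV3 cells DNAJB1 was at -0.26 ± 0.165, with both silenced arrays below both controls, and BAG3 at -0.12 ± 0.166 with overlapping groups. MDAH controls were 2.63-fold lower than SKOV3 controls in DNAJB1 (adjusted p = 0.000493) and 2.24-fold lower in BAG3 (adjusted p = 0.00114).

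HSP90AA1, the inducible cytosolic HSP90, gave a bright signal in both lines. It read 7.94 and 8.37 in MDAH controls, 8.40 and 7.95 in silenced MDAH cells, 8.59 and 8.58 in SKOV3 controls and 8.35 and 7.73 in silenced SKOV3 cells. In SKOV3 cells the silenced arrays lay below the controls, with differences of -0.54, -0.40 and -0.55 for its 3 probes. In MDAH cells the groups overlapped and the difference was 0.02 ± 0.272 (limma, adjusted p = 0.975; 95% interval from -0.63 to 0.67), and it was -0.31 with quantile normalization. MDAH controls differed from SKOV3 controls by -0.43 ± 0.272 for the brightest probe (adjusted p = 0.217). The other probes gave only -0.13 and -0.03, with overlapping groups.

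Compared as a group in cells not silenced, 7 of the 9 members other than CRYAB passed the test between the lines, beside 57.5% of all genes tested. HSPB8, HSPA1A, HSPA8, HSPH1, DNAJB1 and BAG3 were lower in MDAH than in SKOV3 controls and HSPA1B was higher, while HSPB1 and HSP90AA1 did not pass. Among the 8 members well above background on all control arrays, which leaves out HSPB8, 6 passed. The median difference of the 9 was -1.38 on the log2 scale, beside -0.05 over all genes. Centring each array on its median moved the all-gene median by over 0.1, to -0.21, and left the same number of members below zero. The 3 HSPB1 probes disagreed in this comparison, with -0.24, -0.44 and 0.44. HSF1, which induces many of these genes, was lower in MDAH controls (5.14 and 5.23) than in SKOV3 controls (6.11 and 6.03). The difference was -0.88 ± 0.221 (limma, adjusted p = 0.0129). Its silencing differences were 0.01 ± 0.221 in MDAH (adjusted p = 0.989) and -0.40 ± 0.221 in SKOV3 cells (adjusted p = 0.364). Any part of HSF1 in the levels of the members was not tested.

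**Figure D2:**
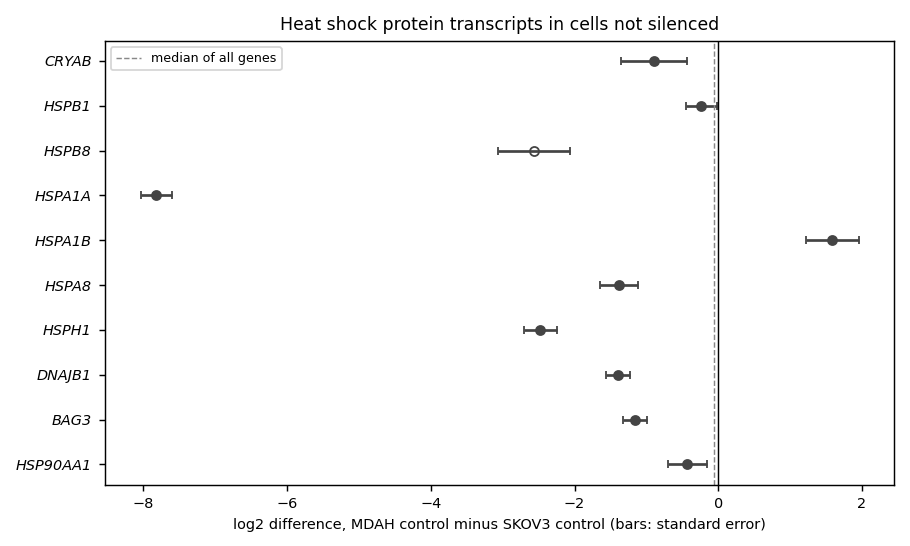
Log2 difference between MDAH and SKOV3 control cells (horizontal axis) for the 10 heat shock genes, with the standard error of the fit as bars, 2 arrays per group, and the median of all genes as a dashed line. The hollow point is HSPB8, not well above background in MDAH controls. HSPA1A lies at -7.82 and HSPA1B at 1.58.

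Upon SFPQ silencing in MDAH cells 0 of the 10 members passed the test (limma, the smallest adjusted p being 0.114), beside 2.03% of all genes tested. At an unadjusted p under 0.05 there were 2 of 10, HSPA8 and BAG3, beside 23.1% of all genes tested. Leaving out HSPB8, which was not measured there, 8 of 9 members had a positive difference, with a median of 0.16 beside 0.10 over all genes, and 5 of 9 lay above the all-gene median. With quantile normalization 4 of 9 were positive. HSPA1A, HSPA8, DNAJB1 and BAG3, 4 of 10, had silenced arrays that did not overlap the controls, beside 57.0% of all genes tested.

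In SKOV3 cells 1 of 10 members was past the threshold, beside 0.997% of all genes tested. That member was CRYAB, so the count comes from the choice of the gene and nothing is read from it. The CRYAB difference was between 2.47 and 3.84 on leaving out 1 array. Of the 9 others, 8 had a negative difference and HSPB8 a positive one, from -0.54 to 0.18, with a median of -0.26 beside -0.04 over all genes, and 6 of 9 were negative with quantile normalization. The silenced and control arrays did not overlap for 5 of 10, CRYAB above and HSPA1B, HSPH1, DNAJB1 and HSP90AA1 below, beside 58.0% of all genes tested.

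**Figure D3:**
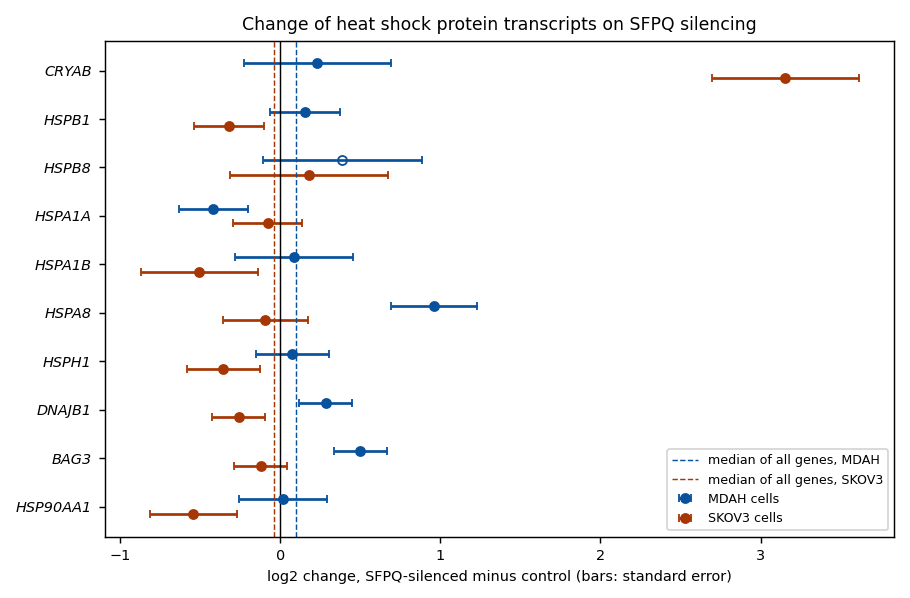
Log2 difference between SFPQ-silenced and control cells (horizontal axis) of the 10 heat shock genes in MDAH (blue) and SKOV3 cells (brown), with the standard error of the fit as bars, 2 arrays per group, and the median of all genes in each line as dashed lines. The hollow point is HSPB8, not well above background in MDAH cells. CRYAB in SKOV3 cells lies at 3.16, and the other values lie between -0.54 and 0.96.

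The wider chaperone network, 97 genes in 9 families with none of the members among them, was measured by 95 genes on the arrays, of which 88 were tested. None passed the test in either line (limma, 0 of 88 in each), with 23 at an unadjusted p under 0.05 in MDAH and 12 in SKOV3 cells. These were 26.1% and 13.6% of the 88, beside 23.1% and 19.5% of all genes tested. In MDAH cells 70 of 88 had a positive difference, beside 9301 of all 15547 genes, with a median of 0.26 beside 0.10 over all genes. In SKOV3 cells 29 of 88 were positive, beside 7158 of 15547, with a median of -0.14 beside -0.04. These counts depended on the scaling: with quantile normalization 58 and 43 of 88 were positive, with medians of 0.13 and -0.01.

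The chaperonins and prefoldin, which fold actin and tubulin, were positive for 14 of 14 genes in MDAH cells (median 0.43) and for 2 of 14 in SKOV3 cells (median -0.16). HSP90 and its co-chaperones were positive for 10 of 11 (median 0.50) and 2 of 11 (median -0.23). Among them HSP90AB1, the constitutive cytosolic HSP90, read 5.41 and 5.70 in MDAH controls and 6.15 and 5.96 in silenced MDAH cells, and 5.56 and 5.53 in SKOV3 controls against 5.42 and 5.21 in silenced SKOV3 cells. It thus lay above the controls in silenced MDAH cells by 0.50 ± 0.169 (adjusted p = 0.157) and below them in silenced SKOV3 cells, at -0.23 ± 0.169 (adjusted p = 0.478). Mitochondrial chaperones were positive for 8 of 9 in MDAH and 4 of 9 in SKOV3 cells, and J domain proteins for 14 of 20 and 6 of 20. BAG and other HSP70 co-chaperones were positive for 7 of 9 and 3 of 9.

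Small heat shock proteins other than the members were positive for 3 of 4 in MDAH and 2 of 4 in SKOV3 cells, the HSP70 and HSP110 family for 5 of 8 and 4 of 8, and the heat shock factors for 3 of 5 in both. HSPA6, an HSP70 gene that is silent in most cells until strong stress, was well above background on 1 of 8 arrays, an MDAH control, and was not tested. Chaperones of the endoplasmic reticulum were positive for 6 of 8 (median 0.10) in MDAH and 3 of 8 (median -0.20) in SKOV3 cells. Their main member HSPA5 (BiP), which rises in the unfolded protein response, read 3.35 and 3.07 in MDAH controls, 3.54 and 1.98 in silenced MDAH cells, 1.72 and 2.30 in SKOV3 controls and 2.35 and 2.23 in silenced SKOV3 cells. These groups overlapped in MDAH cells, and HSPA5 did not pass the test in either line (limma, adjusted p = 0.601 and 0.772). Of the other lens crystallins, the family to which CRYAB belongs by name, 4 of 10 with a probe were tested, and 1 and 2 of them were positive in MDAH and SKOV3 cells.

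**Figure D4:**
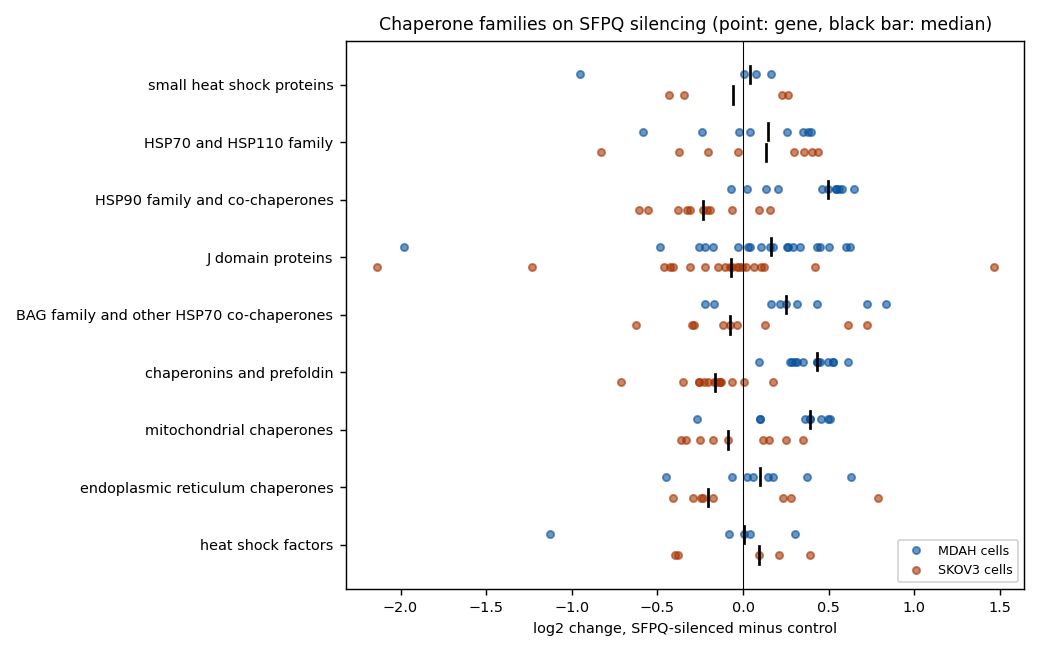
Log2 difference between SFPQ-silenced and control cells (horizontal axis) of the 88 tested genes of 9 chaperone families (vertical axis), in MDAH (blue) and SKOV3 cells (brown), each point 1 gene and each black bar the median of the family. For chaperonins and prefoldin the medians are 0.43 and -0.16.

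Genes with levels most like those of CRYAB were sought among those whose SD over the 8 arrays was at least 0.5 times that of CRYAB. This left out HSPB1, HSPA8, DNAJB1, HSP90AA1 and BAG3 (SD 0.22 to 0.63, beside 1.79 for CRYAB). A list without chaperones therefore says nothing about them. Over the 8 arrays and 4096 genes that varied at least 0.5 times as much, the highest Pearson r with CRYAB were those of BCL6 (0.96), a transcriptional repressor, IFITM10 (0.96), PAQR6 (0.96), PNPLA7 (0.95), a lysophospholipase, and TCL1B (0.95). The 8 points share arrays, lines and shRNAs, and these genes were chosen for the likeness, so the values are a description. BCL6 read -0.72 and -1.02 in MDAH controls, -0.14 and -0.49 in silenced MDAH cells, -0.32 and -0.18 in SKOV3 controls and 0.96 and 1.78 in silenced SKOV3 cells. In all 5 genes, as in CRYAB, the array of SKOV3 cells with sh-SFPQ#3 was the highest and that with sh-SFPQ#2 the next. Their differences in SKOV3 cells were 1.62 for BCL6, 1.503 for PAQR6, 1.66 for PNPLA7 and 1.24 for TCL1B, all below that of CRYAB. IFITM10 was not well above background in SKOV3 controls and was at least 2.48-fold higher in silenced SKOV3 cells.

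**Figure D5:**
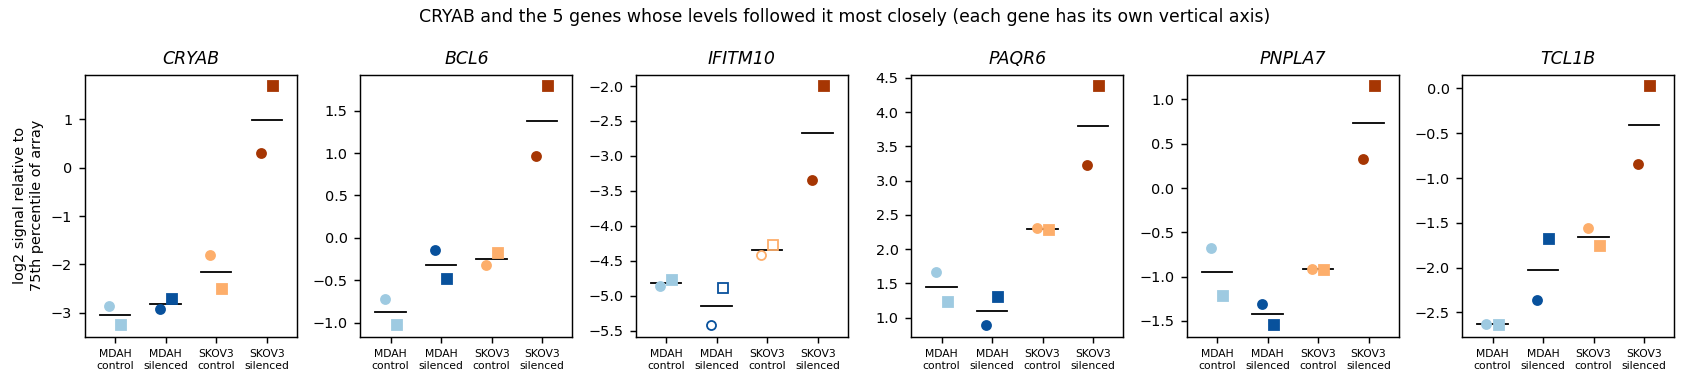
Log2 signal minus the array's 75th percentile (vertical axis, own scale for each gene) of CRYAB and the 5 genes with the highest Pearson r with it over the 8 arrays, in the 4 groups (horizontal axis). Circles are control 1 or sh-SFPQ#2, squares control 2 or sh-SFPQ#3, bars the group mean, and hollow points a group with no array well above background. In all 6 genes the SKOV3 array with sh-SFPQ#3 is the highest.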

How the data were processed

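Per the file headers, the authors let Feature Extraction subtract the background and deposited the processed signal intensity of each spot, with flags for outliers and for signal well above background, which were used as deposited. They also deposited a table of log2 values, which a comparison showed to be quantile-normalized signals centred on the median of each probe (r of at least 0.999997 on each array). Here control and outlier spots were left out, the log2 signals of a probe's spots were averaged and the 75th percentile of the array was subtracted. Probes were named through RefSeq accessions (28174 of 30878 matched), and the brightest probe stood for a gene. Of the named probes, 8 with no usable spot on some array were left out. The 4 groups were fitted together in limma 3.58.1 (R 4.3.3) with Benjamini-Hochberg adjustment over 15547 genes and a threshold of 0.05. The number of arrays limits the precision, and an exact permutation test of 2 against 2 arrays could not go below p = 0.333. Promoter windows were aligned with Biopython 1.88. The fit was tested on simulated data. Members and gene lists were chosen with earlier results of these data known. The genes named besides the members and the cell type markers were SFPQ, HSPB2, HSPA5, HSP90AB1, HSPA6, HSF1 and the 5 genes most like CRYAB. Any other chaperone past the threshold upon silencing in either line was to be named too, and there was none. Chaperones past it between the control cells of the lines were not named on that ground. Normexp used median pixel intensities as deposited. Apart from the promoter windows, genome positions are not given, since the array design and the reference use different builds.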

Additional observations from a re-analysis of the deposited data

Results flagged for a closer look

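In DNAJB1 and HSP90AB1 every silenced array lay above both controls in MDAH cells and below both in SKOV3 cells. Neither gene passed the test in MDAH cells, and HSP90AB1 did not in SKOV3 cells. Silenced and control arrays did not overlap for 57.0% of all genes tested in MDAH and 58.0% in SKOV3 cells. The difference in SKOV3 minus that in MDAH cells was -0.542 for DNAJB1 (0.28 in MDAH and -0.26 in SKOV3 cells) and -0.731 for HSP90AB1 (0.50 and -0.23). The signs were the reverse for PNPLA7, with 2.13 (-0.48 and 1.66), which was chosen for its likeness to CRYAB. None of these differences between the lines was tested.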

How the results depend on the processing

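With 2 arrays per group, the calls rested on few arrays. Of the 18 alternatives, those that left no group with 1 array called 0 members upon silencing in MDAH cells. They called 6 or 7 members between the lines. Few genes were called at all upon silencing in MDAH cells, so 0 members says little. The lowest was 92 of 13572 genes, with a stricter filter on dim probes. The highest was 858 of 15547, with control number and shRNA number as covariates. Between the lines 57.5% of all genes passed in the main setting, and whether the members exceed this share was not tested. In SKOV3 cells the count of members past the threshold held CRYAB alone, which was chosen on this change, so nothing about it is read from its values of 1, 0 without a filter on dim probes, 0 with only the 4 arrays compared and 0 to 1 on leaving out 1 array. The CRYAB difference there was 2.38 to 3.16 over the other settings. Small differences in MDAH cells changed sign: with quantile normalization, normexp and the deposited values in turn, HSP90AA1 gave -0.31, -0.32 and -0.31, HSPA1B -0.033, -0.053 and -0.034, HSPB1 -0.077, -0.10 and -0.079, and HSPH1 -0.047, -0.027 and -0.047. On leaving out 1 array they lay between -0.21 and 0.24, -0.36 and 0.53, -0.034 and 0.35, and -0.27 and 0.42. The cause was not tested.

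The number of all genes called upon silencing was 316 in MDAH and 155 in SKOV3 cells, of 15547 tested. It was 622 and 322 with normexp, and 142 and 0 with only the 4 arrays compared (3047 and 2763 at an unadjusted p under 0.05 in limma). Other settings tested other numbers. With a stricter filter 92 of 13572 and 75 of 13148 genes were called, and without a filter 235 and 39 of 20499. With every probe tested on its own 475 and 242 of 20929 probes were called. The number of genes called also changed widely on leaving out 1 array. With a replicate block (control number and shRNA number as covariates) it was 858 and 688, and the block changed no call of a member. Deviations of arrays with the same control number correlated across genes at r = 0.08 between the lines and those with the same shRNA at 0.36. The main fit did not include these numbers, so any effect that an shRNA had in both lines stays in its spread. With 2 pairs each, whether the numbers pair the arrays was not tested. The SFPQ decrease kept its sign in all 18 alternatives, with adjusted p up to 0.218 in MDAH and 0.158 in SKOV3 cells. Centring on the median moved the all-gene median in MDAH cells from 0.10 to 0.21. HSPB8 and HSPA1A in MDAH cells and HSPB2 in SKOV3 cells were near background, and with normexp the differences between the lines were smaller, at -0.72, -6.08 and 1.98. No block for the slide was fitted, since there was 1, and position on it and group cannot be told apart.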
